A study of Homo sapiens with 3 samples.

Results

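The Kruppel-like factors are a family of transcription factors, and 10 of them were followed here across cells with and without depletion of HDAC2, a class I histone deacetylase. They were KLF2, KLF3, KLF4, KLF5, KLF6, KLF7, KLF9, KLF10, KLF11 and KLF13, taken by gene symbol from a table of 57736 gene rows. The study held 2 libraries of HDAC2 knockdown cells, made with different lentiviral short hairpin RNAs called shRNA 1 and shRNA 2, and 1 library of cells labelled wild type for HDAC2 (WT). All were made from total RNA of TOV21G, an established human line of ovarian clear cell carcinoma, and both groups share the mutation that the line carries in ARID1A, which encodes a chromatin remodelling subunit of SWI/SNF. The labels mention no control virus for WT, so depletion of HDAC2 and transduction cannot be told apart. Nothing says that a library stands for more than 1 culture, so the p-values rest on the spread between these libraries. That spread comes from the 2 knockdown libraries and is in large part shared across genes. Each of these has its own hairpin, so spread between hairpins and between cultures cannot be told apart. The spread of WT, with 1 library, is taken to equal that of the knockdown libraries.

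Kruppel-like factors bind GC-rich and CACCC-containing DNA through zinc fingers at their C-terminal end, and differ in the N-terminal part that recruits cofactors. KLF2, KLF4, KLF5, KLF6 and KLF7 carry activating regions and take part in the growth and differentiation of epithelia, endothelium and other tissues. KLF3 recruits the corepressor CtBP, and KLF9, KLF10, KLF11 and KLF13 recruit SIN3A, the scaffold of a complex that itself contains HDAC1 and HDAC2. In epithelial cells KLF4 is best known as a differentiation and growth-arrest factor, KLF5 as a factor of proliferating cells, and KLF6 as a stress-responsive and growth-restraining factor.

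The 250 bases upstream of the RefSeq start site are shown for KLF6, the member that passed the test below, and for KLF9 and KLF4, the members whose fitted changes were of similar size without passing. KLF6 lies at chr10:3785210-3785459, KLF9 at chr9:70414658-70414907 and KLF4 at chr9:107489770-107490019, all on the minus strand of GRCh38.p14. Capitals mark GGGCGG (the GC box) and CCAAT on either strand.
KLF6: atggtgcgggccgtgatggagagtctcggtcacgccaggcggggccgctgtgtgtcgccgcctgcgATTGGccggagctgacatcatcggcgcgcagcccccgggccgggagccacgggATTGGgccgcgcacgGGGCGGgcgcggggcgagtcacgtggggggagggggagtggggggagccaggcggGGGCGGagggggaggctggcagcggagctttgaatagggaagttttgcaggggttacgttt
KLF9: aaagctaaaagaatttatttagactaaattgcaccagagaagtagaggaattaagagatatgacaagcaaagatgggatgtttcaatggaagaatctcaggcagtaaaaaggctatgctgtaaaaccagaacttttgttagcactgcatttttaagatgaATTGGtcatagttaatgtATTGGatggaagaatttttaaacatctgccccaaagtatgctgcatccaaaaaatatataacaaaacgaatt
KLF4: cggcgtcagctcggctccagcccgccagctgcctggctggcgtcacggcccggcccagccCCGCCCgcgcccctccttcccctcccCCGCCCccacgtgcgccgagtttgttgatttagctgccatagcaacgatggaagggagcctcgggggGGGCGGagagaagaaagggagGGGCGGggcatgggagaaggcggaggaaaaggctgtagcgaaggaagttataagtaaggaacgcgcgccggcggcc
The windows differ plainly in composition, with a GC content of 72.4% for KLF6, 69.2% for KLF4 and 32.4% for KLF9. KLF6 held 2 GC boxes and 2 CCAAT motifs, KLF4 held 4 GC boxes and 0 CCAAT motifs, and KLF9 held 0 GC boxes and 2 CCAAT motifs. RefSeq gave 13 such windows for 8 of the 10 members, those of KLF3 and KLF10 being left out. GGGCGG stood in 8 of the 13 windows against 42.6% of 35116 RefSeq windows of the same length, and CCAAT in 6 of the 13 against 32.01%. CACCC, the core of the family's own recognition sequence, stood in 6 of the 13 against 54.7%, and in 0 of the 3 windows printed above. CACGTG was found in 4 of the 13 against 6.34%, among them KLF6 and KLF4. TGACGTCA (upstream of KLF11) and TATAAA (upstream of KLF5) were found in 1 window each, against 1.65% and 10.7%, and the CArG box in 1 window of KLF7 against 1.16%. All motifs were searched on both strands, and matches of CACCC and GGGCGG may share letters. The windows of 1 gene are not independent, and a match describes letters, not a bound site.

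The knocked-down gene and the cells were checked before the members. HDAC2 fell, to 33.4 and 51.6 CPM (the count scaled to library size) with the 2 hairpins, against 105 CPM in WT, a log2 change of -1.31 ± 0.20 (SE; edgeR adjusted p = 4.82e-04). The libraries held between 10138479 and 11398791 counts. Of 9 genes taken as markers of this tumour type, 8 were tested and 0 rose or fell, and PAX8 and KRT18 had at least 174 CPM in every library, whereas CDH1 and KRT19 had at most 1.06 CPM. The summed level of 5 leukocyte markers was 1.66 and 0.707 CPM in the knockdown libraries and 2.71 CPM in WT, and that of 4 endothelial markers 0.872 and 0.442 CPM against 0.201 CPM. The 5 fibroblast markers summed to 5.06 and 9.11 CPM in the knockdown libraries and 6.92 CPM in WT, nearly all of it COL1A1, with COL3A1 and LUM at 0 counts throughout.

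Of the 10 members, 9 passed the filter on low counts, and KLF2 did not. KLF6 alone passed the test, and it rose. The other 8 did not pass, and 0 members fell. Among all 14524 genes tested, 3.96% rose and 3.76% fell, 7.72% in all (edgeR quasi-likelihood F test, Benjamini-Hochberg adjusted p below 0.05). These were 575 rising and 546 falling genes, against 96 and 154 once the dependence on transcript GC content was taken out. A count of 1 among 9 is near that background, so the count says nothing particular about the family. At an unadjusted p below 0.05, 3 members were counted (KLF6, KLF9 and KLF4), where 23.5% of all genes were. The median fitted log2 change of the 9 members was 0.14, against 0.01 over all genes tested, and the members ranged between -0.33 and 0.88. In CPM, 5 of the 9 were above WT with both hairpins, 3 were below it with both, and KLF3 lay on either side. Of all genes tested, 39.9% were above WT with both hairpins and 39.3% below it.

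**Figure D1:**
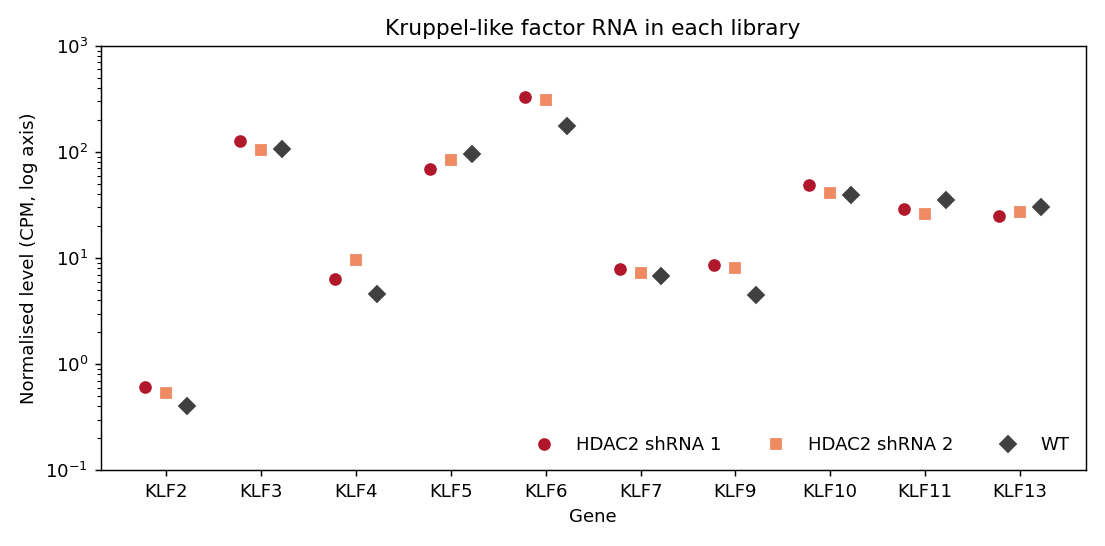
Normalised level (CPM, log axis) of each of the 10 Kruppel-like factors in the shRNA 1, shRNA 2 and WT libraries, 1 point per library. KLF6 stands highest in every library, at 333 and 308 CPM with the hairpins and 175 CPM in WT, and KLF2 stands lowest, at 0.611 and 0.531 CPM with the hairpins and 0.401 CPM in WT.

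KLF6 (ENSG00000067082), the zinc finger factor known for early induction by growth and stress signals, rose in HDAC2 knockdown cells. Its count was 3815 with shRNA 1 and 3483 with shRNA 2, and 1748 in WT. These are 333 and 308 CPM in the knockdown libraries, 190% and 176% of the 175 CPM in WT. The knockdown libraries lay close together, at 320 ± 17.6 CPM (SD, n = 2), and both lay above WT. In bulk RNA, a change in the number of cells with a transcript and one in its amount per cell cannot be told apart. On the log2 scale it rose by 0.87 ± 0.17 (SE; edgeR adjusted p = 0.00419), a 1.83-fold difference with a 95% interval between 1.42 and 2.35. In log2 change KLF6 stood at place 238 among the 575 rising genes, and 4.90% of all genes tested had a larger one. It was also an abundant transcript at the outset, with a WT level above that of 92.9% of the genes tested. None of its read-length sequences occur in another annotated gene, and no annotated gene overlaps it. The call held in 7 of 8 other settings and was lost with no filter on low counts, where the log2 change was again 0.87 and 0 genes of the table passed (edgeR adjusted p = 0.468).

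The other members with activating regions did not pass. KLF4 (ENSG00000136826), a factor of epithelial differentiation and of reprogramming to pluripotency, had a count of 73 with shRNA 1 and 108 with shRNA 2, and 46 in WT. The levels were 6.37 and 9.55 CPM in the knockdown libraries and 4.61 CPM in WT, so both hairpin libraries were higher, by amounts that differed. The log2 change was 0.78 ± 0.34 (SE), with an edgeR adjusted p of 0.164, and the 95% interval of the fold lay between 1.06 and 2.81 before adjustment over all genes. KLF5, which promotes proliferation of epithelial cells, stood the other way, with 799 and 959 counts with the hairpins against 948 counts in WT. Its levels of 69.7 and 84.8 CPM in the knockdown libraries were both below the 95.1 CPM in WT. Its log2 change of -0.30 ± 0.18 (SE) did not pass (edgeR adjusted p = 0.320), and the interval of the fold lay between 0.630 and 1.05. KLF7, named for its wide expression and studied in neurons and fat cells, had 7.85 and 7.16 CPM with the hairpins and 6.82 CPM in WT, a log2 change of 0.14 ± 0.30 (SE). Its interval, between 0.718-fold and 1.69-fold, leaves room for a change in either direction.

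KLF2, a factor of quiescent endothelium and lymphocytes, was hardly detected. Its count was 7 with shRNA 1 and 6 with shRNA 2, and 4 in WT, and it was left out of the test. The knockdown libraries together held 1.42 times the WT level, with an exact interval between 0.440 and 5.99 that covers counting error only. A difference was not detectable at this depth.

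KLF3, the CtBP-binding repressor, had 1452 and 1182 counts with the hairpins, against 1069 counts in WT. At 127 and 105 CPM in the knockdown libraries and 107 CPM in WT, its WT level lay between those of the hairpins. The log2 change was 0.11 ± 0.18 (SE), an edgeR adjusted p of 0.764 and a fold interval between 0.832 and 1.40. It was -0.08 once the dependence on transcript GC content was taken out. Its antisense neighbour KLF3-AS1 had 20 and 17 counts with the hairpins and 14 counts in WT. Whether the counting used strand is not stated in the sources, so reads of the pair may not have been told apart.

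Among the SIN3-binding members, KLF9 had the largest fitted change. KLF9 (ENSG00000119138), known as a target of glucocorticoid and thyroid hormone receptors, had a count of 99 with shRNA 1 and 91 with shRNA 2, and 45 in WT. Its levels of 8.64 and 8.05 CPM in the knockdown libraries (8.34 ± 0.417 CPM, SD, n = 2) were both above the 4.51 CPM in WT. The log2 change was 0.88 ± 0.31 (SE), as large as that of KLF6, but it did not pass (edgeR adjusted p = 0.0896). In no setting tried did KLF9 pass, with adjusted p between 0.0610 and 0.468 in the 7 edgeR alternatives. The 95% interval of its fold, between 1.17 and 2.91 before adjustment, is wider than that of KLF6. KLF10, induced by transforming growth factor beta (TGF-beta), had 49.2 and 40.8 CPM with the hairpins and 39.0 CPM in WT, a log2 change of 0.21 ± 0.19 (SE). KLF11, its closest relative and also TGF-beta responsive, had 29.2 and 26.2 CPM in the knockdown libraries, both below the 34.9 CPM in WT. The log2 change of KLF11 was -0.33 ± 0.19 (SE), with an edgeR adjusted p of 0.311. An antisense transcript over KLF11, AC104794.4, had 26 and 19 counts with the hairpins and 24 counts in WT, beside 335, 296 and 348 counts of KLF11 in the same libraries. KLF13, which regulates the chemokine gene CCL5 in T cells, had 25.04 and 27.4 CPM with the hairpins and 30.4 CPM in WT. Its log2 change was -0.21 ± 0.20 (SE), and 0.02 with the GC trend removed. Neither KLF10 nor KLF13 passed (edgeR adjusted p = 0.553 and 0.556).

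**Figure D2:**
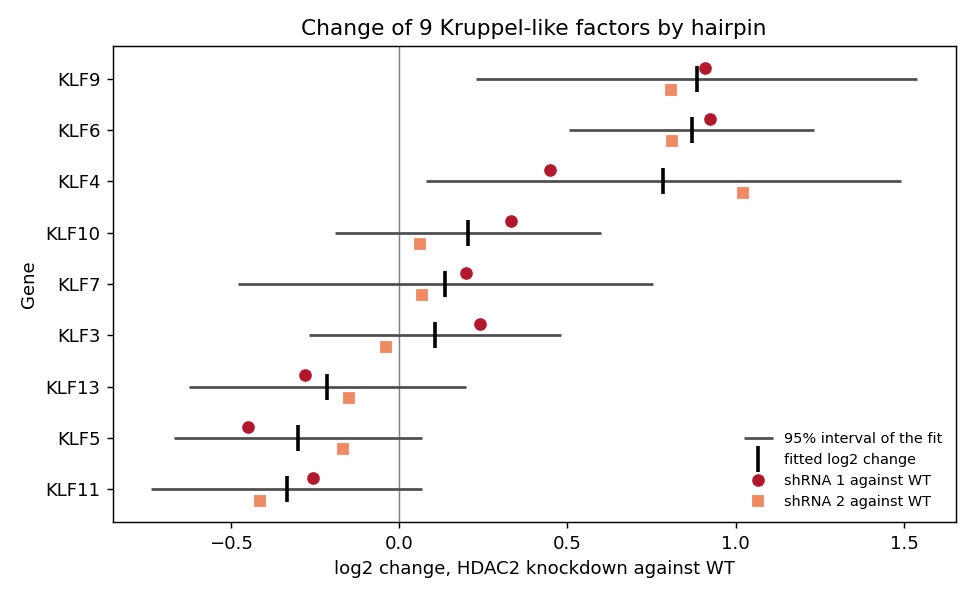
Log2 change of the 9 tested Kruppel-like factors, HDAC2 knockdown against WT, with the edgeR estimate (bar), its 95% interval (line) and the change by each hairpin alone (points). The intervals of KLF6, KLF9 and KLF4 lie above 0 before adjustment over all genes, those of the other 6 members hold 0, and KLF6 alone passed after adjustment.

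KLF6 and the members of similar fold differed in depth. KLF4, KLF7 and KLF9 had mean counts between 50 and 100 over the 3 libraries. Of the 1342 tested genes in that range, 73 passed, which is 5.44%, and the smallest absolute log2 change among those was 0.90, just above the 0.88 of KLF9. Not every gene in that range with a larger change than KLF9 passed. Of the 9864 genes whose mean count reached 100, 9.97% passed. On counts simulated for 14524 genes of the knockdown against WT, the test recovered 58.6% of 70 genes changed 2-fold. Of 63 genes changed 1.5-fold it recovered 14.3%. These rates pool all depths, and fewer genes were changed there than passed in the data. They therefore do not give the rate of recovery for KLF4, KLF7 or KLF9. A member that did not pass is not shown to be unchanged.

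**Figure D3:**
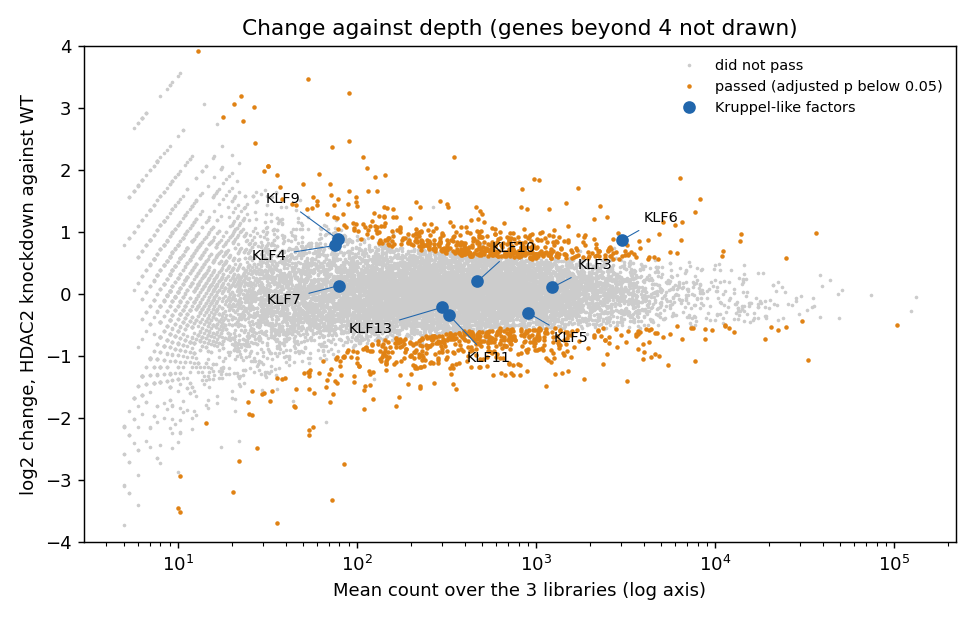
Log2 change of every tested gene, HDAC2 knockdown against WT, against its mean count over the 3 libraries (log axis), with genes that passed in orange and the Kruppel-like factors in blue. KLF6 lies among the genes that passed at a mean count of 3015, whereas KLF9 and KLF4, at mean counts of 78.3 and 75.7, lie at similar heights among genes that did not.

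The members were also compared between the hairpins, where 1 library against 1 allows no test. The difference is given as log2 CPM with shRNA 2 minus that with shRNA 1. Of the 9 members, 3 were higher with shRNA 2 and 6 with shRNA 1, and 0 differed by more than 1.5-fold, as 10.8% of all tested genes did. KLF4 came nearest, with a difference of 0.57. The exact counting interval of that ratio lay between 1.10-fold and 2.05-fold. KLF5 was higher with shRNA 2 by 0.28, and KLF3 and KLF10 were lower with it, at -0.28 and -0.27. KLF6 differed by -0.11, KLF7 by -0.13, KLF9 by -0.10, KLF11 by -0.16 and KLF13 by 0.13. The exact counting intervals of KLF7, KLF9, KLF11 and KLF13 held 1, that of KLF9 lying between 0.693-fold and 1.25-fold. HDAC2 itself differed by 0.62, being lower with shRNA 1. The median absolute difference of the members was 0.16, against 0.19 over all genes.

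**Figure D4:**
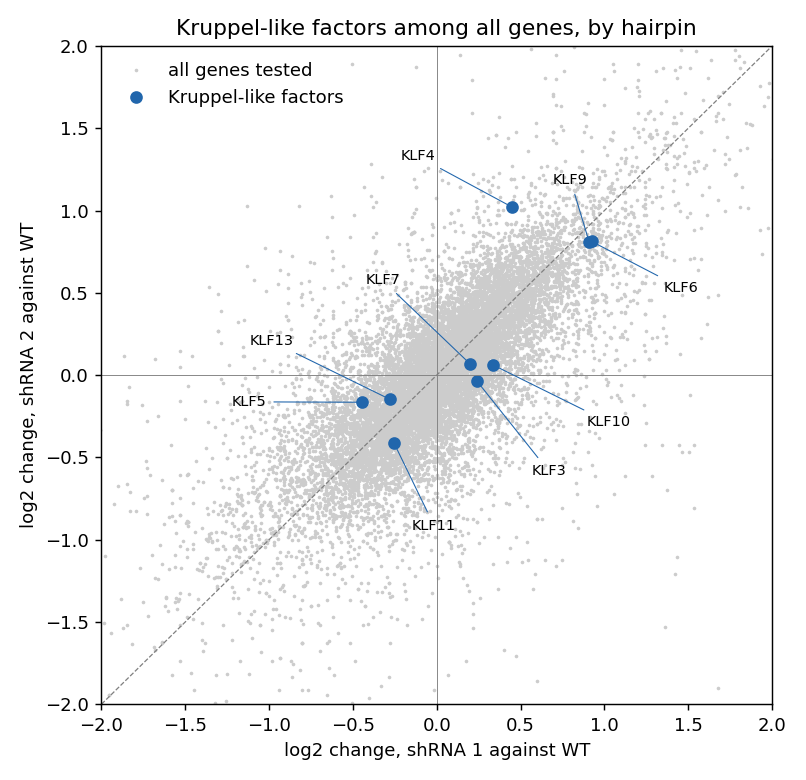
Log2 change against WT with shRNA 2 (vertical) and with shRNA 1 (horizontal) for all tested genes in grey and the 9 Kruppel-like factors in blue, drawn between -2 and 2, with a dashed line of equal change. KLF6 and KLF9 nearly coincide, KLF6 at 0.81 with shRNA 2 and 0.92 with shRNA 1, KLF4 lies off the line at 1.02 with shRNA 2 and 0.45 with shRNA 1, and KLF3 has opposite signs; both axes share the WT library.

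By the rule set for likeness, the nearest gene to KLF6 among 11205 others whose mean count reached 50 was KLF9. Likeness was the distance between the log2 changes against WT in the 2 knockdown libraries, and that of KLF9 was 0.0152. The next were EEF1A1P5, a pseudogene of a translation elongation factor, at 0.0223, and ANKRD50, an ankyrin repeat protein gene, at 0.0352. EEF1A1P5 has a near-identical parent gene, so its count is uncertain. The ratio of KLF9 in the knockdown libraries to WT had an exact counting interval between 1.33-fold and 2.62-fold, so its first place is not resolved. With 2 libraries that share 1 WT library, many genes lie close together, and these distances are a description only.

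Levels of different genes were compared as CPM per kb of the longest annotated transcript. KLF6 led in every library, with 71.5 and 66.2 CPM per kb with the hairpins and 37.7 CPM per kb in WT. KLF5 followed with 19.5 and 23.8 CPM per kb in the knockdown libraries and 26.7 CPM per kb in WT. KLF3 had 24.7 and 20.4 CPM per kb with the hairpins and 20.9 CPM per kb in WT. KLF5 and KLF3 exchanged places between the libraries, so their order is not resolved. KLF10 came next with 13.4 and 11.1 CPM per kb in the knockdown libraries and 10.7 CPM per kb in WT, above KLF11 at 7.25 and 6.49 against 8.66 CPM per kb and KLF13 at 3.67 and 4.02 against 4.45 CPM per kb. KLF4, KLF9, KLF7 and KLF2 followed in that order in all 3 libraries, between 3.40 and 0.199 CPM per kb. KLF7 and KLF9 were close in WT, at 0.816 and 0.872 CPM per kb, and KLF9 was the higher in knockdown cells, at 1.67 and 1.56 CPM per kb against 0.939 and 0.857 CPM per kb of KLF7. Part of this order turns with the length used. Per kb of the median transcript, KLF7 stood above KLF9, at 11.7 and 10.7 against 1.67 and 1.56 CPM per kb in the knockdown libraries. On that scale KLF13 had 51.2 and 56.1 CPM per kb with the hairpins and 62.2 CPM per kb in WT, above KLF10 at 14.6 and 12.1 against 11.6 CPM per kb, and KLF11 stood above KLF10 in WT, at 15.4 CPM per kb.

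KLF6 thereby made up a larger part of the summed RNA of the 10 members in knockdown cells. Its share of the summed CPM per kb of the 10 members was 49.2% with shRNA 1, 47.9% with shRNA 2 and 33.5% in WT. The share of KLF5 was 13.5% and 17.2% with the hairpins, against 23.7% in WT. The sum over the members was 145 and 138 CPM per kb in the knockdown libraries and 113 CPM per kb in WT. Without KLF6 it was 73.8 and 71.9 CPM per kb against 74.9 CPM per kb, so the sum without KLF6 was slightly lower in the knockdown libraries. The SIN3-binding members held 17.9% and 16.8% of the sum with the hairpins and 21.9% in WT, while their own summed level was 26.03 and 23.2 CPM per kb against 24.6 CPM per kb, so the knockdown libraries lay on either side of WT. That pattern turns with the length used. Per kb of the median transcript KLF13 led these members, at 51.2 and 56.1 against 62.2 CPM per kb in WT, and both knockdown sums lay below WT. The shares have no test, and they rest on 1 length per gene.

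**Figure D5:**
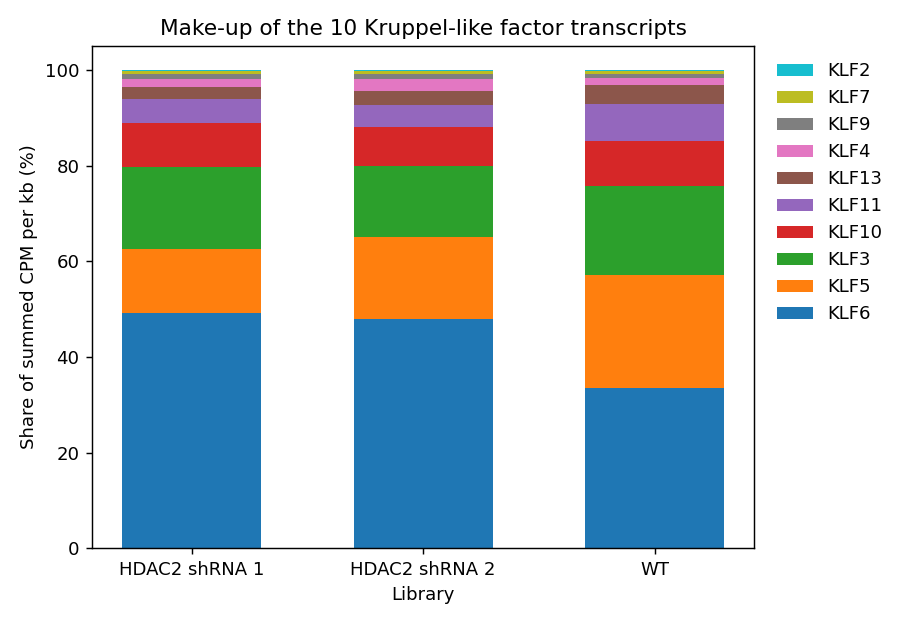
Share (%) of each Kruppel-like factor in the summed CPM per kb of the 10 members, as stacked bars for the shRNA 1, shRNA 2 and WT libraries. The KLF6 segment covers 49.2% and 47.9% with the hairpins against 33.5% in WT, and the segment of KLF5 is the smaller in both knockdown libraries.

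The rest of the family did not pass. Of 7 further KLF genes, KLF8 and KLF16 were tested, and the other 5 had at most 3 counts in any library. KLF8, a CtBP-binding relative of KLF3, had 35.6 and 39.97 CPM in the knockdown libraries and 25.9 CPM in WT (log2 change 0.55 ± 0.20, SE, with an edgeR adjusted p of 0.0936). KLF16, a SIN3-binding member, had a count of 86 and 73 with the hairpins and 94 in WT (log2 change -0.43 ± 0.28, SE). Of 9 SP genes, the nearest relatives of the family, 5 were tested and 0 passed. Their log2 changes were -0.19 for SP1, -0.27 for SP2, 0.05 for SP3, 0.13 for SP4 and 0.34 for SP9.

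Genes that act with or on the members were counted from lists, which like the members were drawn up with earlier results of these data known. For scale, 3.96% of all genes tested rose and 3.76% fell, 7.72% in all. Of 10 corepressor genes, CTBP1, which encodes a partner of KLF3, fell to 0.666 of WT (80.1 and 66.1 CPM with the hairpins against 110 CPM in WT), with a list median of -0.24. That call was lost with DESeq2 size factors, with the GC trend removed (log2 change -0.32) and by DESeq2's Wald test. SIN3A and SIN3B, the partners of KLF9, KLF10, KLF11 and KLF13, had log2 changes of 0.02 and -0.01 and did not pass. Of 4 acetyltransferases, 10 ubiquitin ligases and 4 deubiquitinases that act on members of the family, 0 passed, with medians of -0.07, 0.31 and -0.06.

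Upstream of the members, 1 of 6 genes of the MEK5-ERK5 route that induces KLF2 and KLF4 rose, the kinase MAP3K2 at 1.53-fold. Its call was lost after GC correction (log2 change 0.23) and by DESeq2's Wald test. Of 8 genes of the serum response route and 10 of the TGF-beta route, 0 passed, with medians of -0.01 and -0.20. Of 5 nuclear receptor genes and their targets, FKBP5, a glucocorticoid-induced chaperone, fell to 0.593 of WT (13.4 and 14.1 CPM with the hairpins against 23.2 CPM in WT). The call of FKBP5 was lost by DESeq2's Wald test. The glucocorticoid receptor gene NR3C1 had 15.6 and 12.3 CPM in the knockdown libraries and 7.83 CPM in WT, a log2 change of 0.83 ± 0.26 (SE), with an edgeR adjusted p of 0.0525. THRA, PER1 and TSC22D3 of the same list had log2 changes of -0.21, -0.45 and -0.47 and did not pass. Whether that receptor acts on KLF9 in these cells was not tested.

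Among reported targets of Kruppel-like factors, 2 of 12 cell cycle and growth-arrest genes rose and 2 fell, with a median of -0.15. CDKN1A, the gene of the cell cycle inhibitor p21 and a target of KLF4 and KLF6, rose by 1.53 on the log2 scale. CCND1, which encodes cyclin D1, rose 1.75-fold, or by 0.81 on the log2 scale. Its call was lost after GC correction, at a larger log2 change of 0.87 (edgeR adjusted p = 0.0552). BIRC5 and CCNB1, genes of mitosis, fell to 0.535 and 0.541 of WT. Of 13 growth factor, matrix and stress genes, ATF3 and CCN2 rose, by 1.92 and 1.08 on the log2 scale, with a median of 0.10 over the list. The call of ATF3 was lost with the GC trend removed (log2 change 1.89), and DESeq2's Wald test gave it no adjusted p. Of 4 tested partners of KLF4 in pluripotency 0 passed, and NANOG, SOX2, ESRRB and LIN28B had at most 7 counts in any library. All lists are set against the median of 0.01 over all genes tested and the 7.72% of them that passed. None received a test of its own, and no count is read as a result about its list.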

How the data were processed

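RNA was measured in 3 libraries of TOV21G cells. Per the labels' protocols, RNA was extracted with Trizol, treated with DNase and made into ScriptSeq libraries read at 75 bases. The authors deposited expected counts per Ensembl gene, not normalized and all whole numbers, so rounding changed none. RSEM 1.2.3, edgeR and hg19 are named per the submitters' processing notes, without the role of each. The sources used here do not state strand use.

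The test was edgeR's quasi-likelihood test (edgeR 4.0.16, R 4.3.3; two-sided) with TMM scaling, filterByExpr and Benjamini-Hochberg adjustment over 14524 genes. It had 1 residual degree of freedom plus a prior of 18.9. SE came from the estimate and its F statistic. Log2 CPM by hairpin used a prior count of 2. The script was tested on simulated data. All 10 member symbols matched their IDs in the reference names. Transcript lengths, GC content and shared 75-base sequences came from GENCODE 29 (GRCh38), promoters from RefSeq (GRCh38.p14; motif shares over windows outside chromosome 8), with no coordinate moved between builds. Sharing was under 0.1% for every member.

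The members and lists were chosen with earlier results of these data known. Named were all members, HDAC2, KLF and SP relatives with a mean count of at least 10, up to 3 rising and 3 falling genes a list, and the 3 genes nearest a member that passed. Other genes named in the report (SIN3A, SIN3B, NR3C1, THRA, PER1, TSC22D3, the cell type markers, the antisense genes and low-count genes) were chosen after their values were seen. Alternatives were DESeq2 size factors and Wald test (DESeq2 1.42.0), other scalings and filters, a likelihood ratio test, a GC trend removed per library, each hairpin left out, another prior count and another transcript length.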

Additional observations from a re-analysis of the deposited data

How the results depend on the processing

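Over the 9 tested members and 8 alternative tests, scalings and filters, there were 72 log2 changes. Of these, 69 kept their direction and, where an adjusted p was given, their side of the threshold. KLF6 lost its call with no filter on low counts, which tests 23698 genes, so that 0 members rose and 0 genes of the table rose or fell, while 2486 genes had an unadjusted p below 0.05. In the other 7 alternatives the adjusted p of KLF6 was at most 0.0422, reached with the GC trend removed, and its log2 change lay between 0.82 and 0.90. HDAC2 was likewise lost with no filter (adjusted p = 0.468 by edgeR). With the GC trend removed, KLF3 and KLF13 changed sign, to -0.0791 and 0.0196, and 96 genes rose and 154 fell in place of 575 and 546. The cause was not tested, and that fit had a prior of 7.51 degrees of freedom. Library size alone gave 868 rising genes (595 falling), and DESeq2's Wald test 151 rising and 155 falling, KLF6 among the rising. That test gave no adjusted p for KLF4, KLF7 and KLF9, whose changes in it are among the 69 for their direction alone.

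Leaving out a hairpin leaves 1 library against 1 and no test. The log2 change of KLF6 was then 0.81 to 0.92, of KLF9 0.81 to 0.91, of KLF4 0.45 to 1.02, of KLF3 -0.04 to 0.24, of KLF5 -0.45 to -0.17, of KLF7 0.07 to 0.20, of KLF10 0.06 to 0.33, of KLF11 -0.41 to -0.25 and of KLF13 -0.28 to -0.15. The log2 changes of KLF3, KLF4, KLF5, KLF7, KLF10, KLF11 and KLF13 thus differ in size by over 1.5 times with the hairpin kept. KLF3 also changes sign. These are ratios of log2 changes, whereas in level 0 members differed by more than 1.5-fold between the hairpins. All 27 alternative hairpin differences stayed within their counting intervals. They changed only the scaling or the prior count on the same counts, so little movement was possible. With the median transcript length, 5 of 10 members kept their place in the order of levels, and KLF13 stood at place 4, KLF10 at 6, KLF7 at 7, KLF4 at 8 and KLF9 at 9. No paired analysis was possible because WT has 1 library, so that the groups share fewer than 2 replicate numbers. The lone WT library limits every member, and KLF2 had too few counts for a test.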
